A study of Mus musculus with 6 samples.

Results

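The genes described here are 36 genes of mitosis and the mitotic spindle, listed by name in 8 roles: entry into mitosis, mitotic kinases, the spindle checkpoint, anaphase, the chromosomal passenger complex, kinetochore and centromere, motors and spindle microtubules, and chromosome structure and proliferation. Every non-control array probe carrying one of these gene names was taken, which gave 51 probes for the 36 genes, out of 55681 probes with 36163 gene names on the array. Of the 51 probes, 48 from 35 genes were called well above background by the scanner software on 3 or more arrays, and these were tested. The probe left out for Aurkb, the kinase subunit of the chromosomal passenger complex, was its only one and was not well above background on any array. The other probes left out were a further probe of Nuf2, not well above background on any array, and a further probe of Cdk1, well above background on 2 arrays.

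The arrays came from the jejunum of 6 male C57BL/6J mice, of which 3 had been given VND3207 and 3 the vehicle. VND3207, a compound known here by its code name only, was put into the stomach at 100 mg/kg. All 6 mice, the controls included, then received 9 Gy of radiation after 0.5 h, and the tissue was collected 6 h later. Unirradiated jejunum was not analysed here, so each value compares irradiated mice with and without VND3207. Each signal is the log2 array intensity minus the 75th percentile of its own array, so 0 is the 75th percentile and 1 unit is a doubling of the intensity. All 3 VND3207 arrays were on slide 1 and in scan 1, and all 3 vehicle arrays were on slide 2 and in scan 2, so slide, scan and treatment cannot be told apart in any difference given here. Well above background were 58.8% to 61.4% of the spots on the VND3207 arrays and 66.7% to 70.03% on the vehicle arrays. The enterocyte markers expected of jejunum were measured for 10 of 10 genes.

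Mitosis begins when cyclins A and B, bound to the kinase Cdk1, are switched on by the Cdc25 phosphatases. Plk1, Aurka and Nek2 are kinases that mature and separate the centrosomes, and the passenger complex corrects faulty attachments of chromosomes to the spindle. The spindle checkpoint, built from Bub1, Bub1b (BubR1), Bub3, Mad2l1 (Mad2) and Ttk (Mps1), holds back the anaphase-promoting complex until every kinetochore is attached. The complex, driven by Cdc20 and Ube2c, then marks securin (Pttg1) and cyclin B for destruction and so frees separase (Espl1). In the intestine these transcripts belong to the dividing cells of the crypts, and DNA damage by radiation holds such cells before mitosis. In tissue arrays fewer dividing cells and less RNA per dividing cell cannot be told apart.

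The mitosis genes differed little between mice given VND3207 and mice given vehicle. Represented by its brightest probe, no gene of the 35 was higher and none was lower at an adjusted p under 0.05 (limma, adjusted over all 36098 tested probes), whereas 0.922% of all 26030 gene names were called higher and 14.1% lower. Of these 35 genes 1 had an unadjusted p under 0.05, beside 26.6% of all gene names. Their differences, VND3207 minus vehicle, ran from -0.20 to 0.39 on the log2 scale with a median of 0.10, beside a median of -0.06 over all tested probes. Of the 35 genes, 26 lay above 0 and 9 below. The median was 0.15 without VND3207 replicate 1 and 0.04 without VND3207 replicate 2. Quantile normalization moved the median of all tested probes up by 0.11, and relative to all probes the mitosis genes then lay 0.08 higher, against 0.16 higher with the scaling by the 75th percentile.

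The precision of these arrays bounds what a change on the brightest probes could have been. On these probes the 95% interval of the difference lay within 1.5-fold in either direction for 34 of the 35 genes, and Cenpf was the exception. The interval reached a median of 0.25 log2 units to each side of the estimate. Bub1b was the 1 gene whose interval on the brightest probe left out 0. Over all 48 tested probes, 5 intervals reached past 1.5-fold, from Cdk1, Mad2l1, Cenpf and Tpx2. Those of 4 probes left out 0, from Cdk1, Bub1b, Mad2l1 and Tpx2. These intervals cover the spread between the mice of a group, and neither a shift between slides nor the choice of scaling. Quantile normalization moved the difference of Ttk from 0.15 to 0.47 and left that of Bub1b at 0.36. With smooth trends with spot position, brightness and base composition removed, they were 0.57 and 0.34. Intervals under those settings are not given here.

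**Figure D1:**
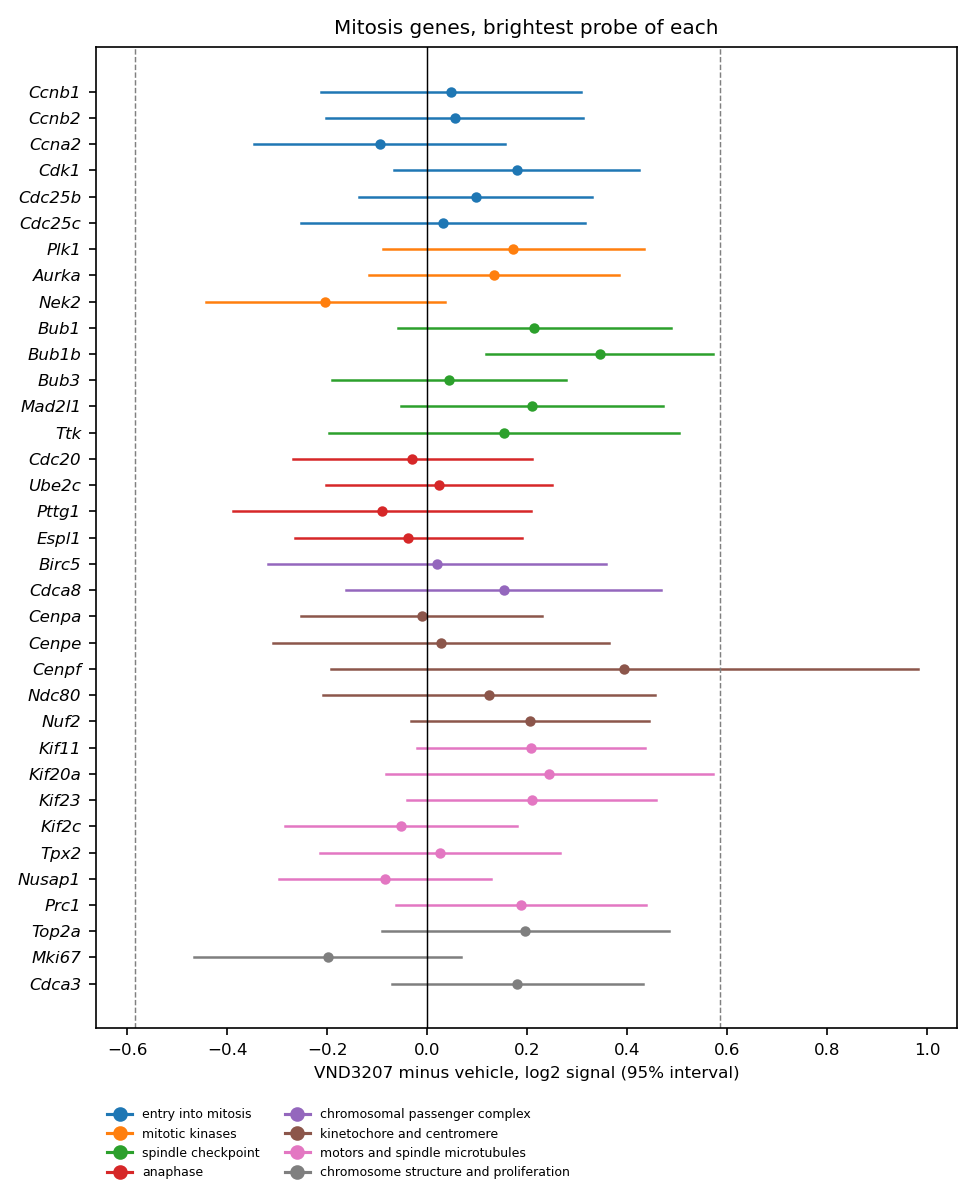
Differences in log2 signal, VND3207 minus vehicle, for the brightest probe of 35 mitosis genes, grouped by role (colour). Points are limma estimates and bars are 95% intervals with 3 mice a group. The dashed lines mark 1.5-fold in either direction. All bars but that of Cenpf stay between the dashed lines, and the bar of Bub1b alone clears 0.

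How the signal of a probe relates to its difference matters for reading the list. Of all tested probes at or above the 75th percentile, 0.662% were called higher and 4.57% lower, and of the dimmer ones 1.08% were called higher and 20.3% lower. Of the 35 mitosis genes, 24 had a brightest probe at or above the 75th percentile, with a median difference of 0.05 beside 0.01 over all such probes. The other 11 had a median of 0.15, beside -0.16 over all dimmer probes. Quantile normalization gave 0.27 for these 11 beside 0.06 over all dimmer probes, and the trend correction 0.31 beside 0.04, so that the value for all dimmer probes changed sign. Over the 13 further probes of the mitosis genes the median was -0.05, with 4 of them above 0.

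**Figure D2:**
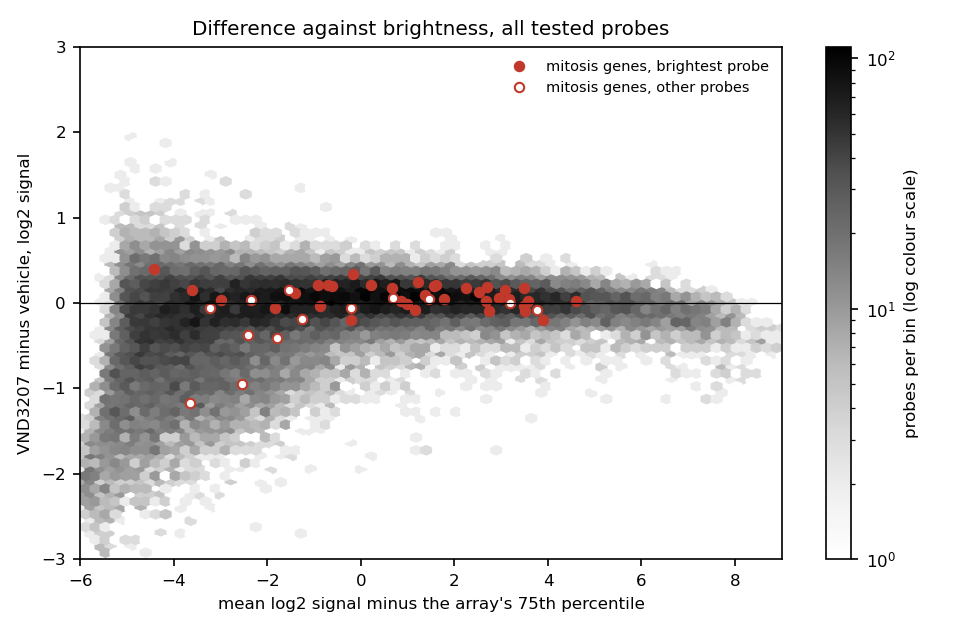
Difference in log2 signal, VND3207 minus vehicle (vertical), against the mean log2 signal over the 6 arrays relative to the 75th percentile (horizontal), for all tested probes (grey bins, log colour scale) and the mitosis genes (filled, brightest probes; open, further probes). The vertical axis ends at -3 and 3. Dim probes scatter widely and mostly below 0, while the brightest probes of the mitosis genes stay between -0.20 and 0.39.

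Among the 6 genes of entry into mitosis, 5 lay above 0 and none passed the test. The cyclin genes Ccnb1 and Ccnb2 differed by 0.05 each and Ccna2 by -0.10. Dimmer further probes of Ccnb1 differed by 0.16 and -0.19. Cdk1, the kinase that drives entry, read 0.66, 0.82 and 0.76 in the VND3207 mice and 0.63, 0.59 and 0.49 in the vehicle mice on its brightest probe. The 3 VND3207 values were all higher, by 0.18 on average (SE 0.10, limma adjusted p = 0.330), and the difference was -0.13 once smooth trends with spot position, brightness and base composition were removed. The phosphatase genes Cdc25b and Cdc25c differed by 0.10 and 0.03.

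Of the 3 mitotic kinases, Plk1 and Aurka lay above 0, by 0.17 and 0.13, and Aurka was at 0.0010 under the trend correction. Nek2, a kinase of centrosome separation, went the other way. It read -0.41, -0.33 and -0.23 in the VND3207 mice and -0.16, -0.11 and -0.09 in the vehicle mice. All VND3207 values were lower, by an amount that did not pass the test (difference -0.20, SE 0.10, limma adjusted p = 0.256; -0.12 under the trend correction).

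On the brightest probes, the spindle checkpoint held the smallest p of the list. All 5 of its genes lay above 0 there, with a median of 0.21, and none passed the test. Dim further probes of Mad2l1 lay below 0, at -0.38 and -0.42. Bub1b, whose protein inhibits the anaphase-promoting complex together with Mad2, read -0.08, 0.02 and 0.07 in the VND3207 mice and -0.32, -0.36 and -0.34 in the vehicle mice. The lowest VND3207 value was above the highest vehicle value, and the vehicle mice lay close together. The difference was 0.35 (SE 0.09), a 1.27-fold higher signal with VND3207, with an adjusted p of 0.0588 in limma that fell just short of the threshold. The adjusted p ran from 0.0461 to 0.168 over the alternative settings and passed in the 2 settings that let the variance follow the signal, at 0.0474 and 0.0461.

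Its neighbours in the checkpoint were less separated. Mad2l1 read 1.63, 1.75 and 1.73 with VND3207 and 1.61, 1.5 and 1.37 with vehicle on its brightest probe, a difference of 0.21 (SE 0.11, limma adjusted p = 0.284) with the groups barely apart. Ttk, the kinase that starts checkpoint signalling, read -3.60, -3.50 and -3.50 with VND3207 and -3.43, -3.90 and -3.74 with vehicle. Vehicle replicate 1 was the highest of the 6, so the groups overlapped, and the difference of 0.15 (limma adjusted p = 0.571) was 0.47 after quantile normalization and 0.57 after the trend correction, without passing in either. It was 0.05 without vehicle replicate 2 and 0.28 without vehicle replicate 1.

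Bub1, the kinase that recruits the other checkpoint proteins to kinetochores, was printed in 10 spots per array, of which 7 to 10 remained after outlier spots were left out. The spots averaged -0.74, -0.51 and -0.56 in the VND3207 mice and -0.81, -0.72 and -0.92 in the vehicle mice, with an SD between spots of 1 array of 0.03 to 0.13. VND3207 replicate 1 and vehicle replicate 2 overlapped, and the difference of 0.21 had a limma adjusted p of 0.295. Bub3 differed by 0.04.

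The 4 anaphase genes lay within 0.09 of 0, and their median of -0.03 became 0.01 under quantile normalization and under the trend correction. Cdc20 and Ube2c, which drive the anaphase-promoting complex, differed by -0.03 and 0.02. Pttg1, the securin gene, read 3.36, 3.51 and 3.50 with VND3207 and 3.48, 3.74 and 3.42 with vehicle, and the high value of vehicle replicate 2 set the difference of -0.09 (limma adjusted p = 0.708), which was 0.0048 without that mouse, -0.15 without vehicle replicate 3 and -0.04 without VND3207 replicate 1. Espl1 differed by -0.04.

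The passenger complex was represented by Birc5 (survivin), which differed by 0.02, and by Cdca8 (borealin). Cdca8 read 2.95, 3.31 and 3.20 with VND3207 and 3.06, 3.05 and 2.89 with vehicle. VND3207 replicate 1 fell among the vehicle mice, and the difference was 0.15 (limma adjusted p = 0.527). It was 0.25 without VND3207 replicate 1, 0.07 without VND3207 replicate 2 and 0.10 without vehicle replicate 3.

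In the kinetochore and centromere role 4 of 5 genes lay above 0 and none passed the test. Cenpf, a large kinetochore protein of late G2 phase, had the largest difference of the list and also the widest interval. It read -4.23, -4.45 and -3.99 with VND3207 and -4.25, -4.53 and -5.08 with vehicle, so that vehicle replicate 3 stood low and the others overlapped (difference 0.39, limma adjusted p = 0.370). Without that mouse the difference was 0.16. The difference became 0.78 under quantile normalization and 0.79 under the trend correction, again without passing. Nuf2, a subunit of the complex that binds microtubule ends, read -0.54, -0.50 and -0.53 with VND3207 and -0.71, -0.65 and -0.84 with vehicle. The 3 VND3207 mice agreed closely and were all higher, by 0.20 (SE 0.10, limma adjusted p = 0.251), and by 0.36 under the trend correction. Its partner Ndc80 differed by 0.12, the kinesin gene Cenpe by 0.03, and Cenpa, the histone variant of centromeres, by -0.01.

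Among motors and spindle proteins 5 of 7 genes lay above 0 and none passed. Kif11 (Eg5), the kinesin that pushes spindle poles apart, read -0.84, -0.81 and -0.79 with VND3207 and -1.11, -0.99 and -0.97 with vehicle. Every VND3207 mouse was higher, by 0.21 (SE 0.09, limma adjusted p = 0.224). Kif20a, a kinesin of cytokinesis, read 1.13, 1.52 and 1.40 with VND3207 and 1.18, 1.01 and 1.13 with vehicle, and VND3207 replicate 1 overlapped the vehicle mice (difference 0.24, limma adjusted p = 0.319). Without VND3207 replicate 2 the difference was 0.16, and without VND3207 replicate 1 it was 0.36.

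Among the motors and spindle proteins, the kinesin gene Kif23 and the microtubule bundler gene Prc1 are needed for cytokinesis too. They differed by 0.21 and 0.19, with all VND3207 values above all vehicle values in both, and by 0.09 and 0.06 under the trend correction. Nusap1, which stabilises microtubules near chromosomes, differed by -0.08 with all VND3207 values lower, and Kif2c, a kinesin that takes microtubules apart, by -0.05. Neither these nor Tpx2 passed on the brightest probe.

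The last role held Mki67, which encodes the proliferation antigen Ki-67, with Top2a, the topoisomerase that untangles sister chromatids, and Cdca3. Mki67 read 3.69, 3.86 and 3.85 with VND3207 and 3.89, 4.11 and 4.0 with vehicle. All VND3207 values were lower, by 0.20 (limma adjusted p = 0.319), while its second probe differed by -0.08 with overlapping groups. Top2a and Cdca3 lay the other way, at 0.20 and 0.18, with all VND3207 values higher; the trend correction brought Cdca3 to -0.09.

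Across the 35 genes, all VND3207 values were above all vehicle values in 9 and below them in 3, namely Nek2, Nusap1 and Mki67. Over all gene names, 9.87% did not overlap in the higher direction and 24.4% in the lower. The genes with higher values were Cdk1, Bub1b, Mad2l1, Nuf2, Kif11, Kif23, Prc1, Top2a and Cdca3. With 3 mice a group an exact permutation test of 1 gene cannot give a 2-sided p under 0.1, which such a gene reaches.

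**Figure D3:**
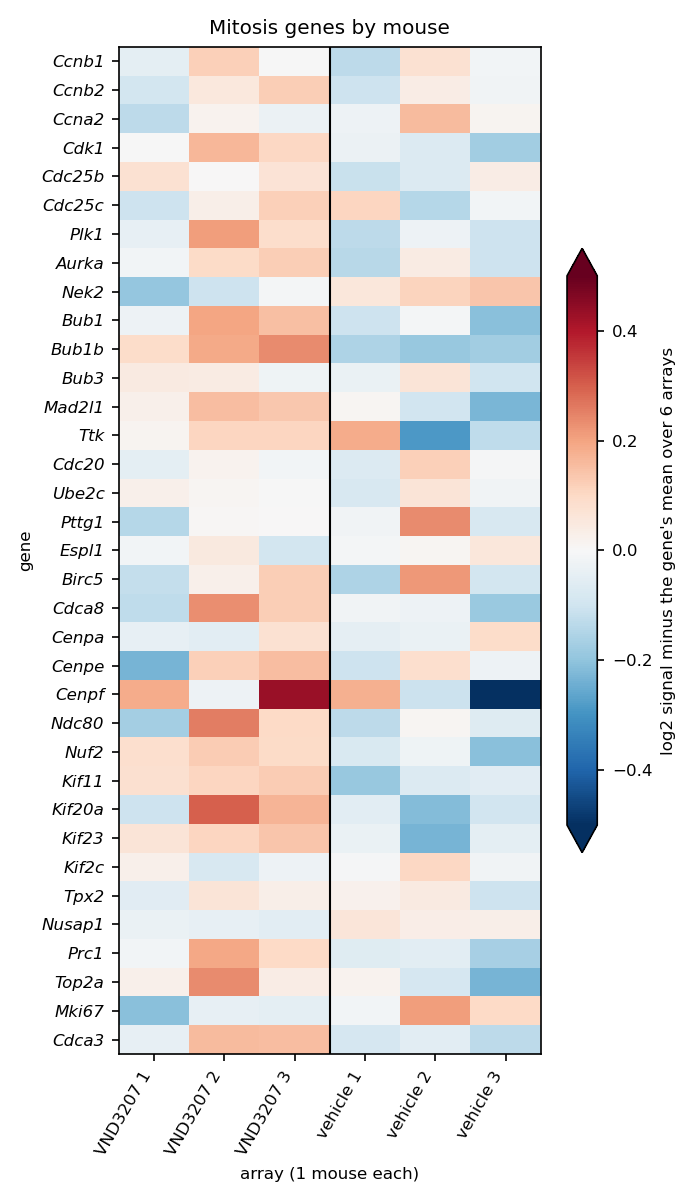
Log2 signal of each mitosis gene (rows, brightest probe) in each mouse (columns, VND3207 left of the line and vehicle right of it), after its mean across all arrays was taken off. Red is above that mean and blue below; colours stop at the ends of the scale. The Bub1b row is red in all 3 VND3207 mice and blue in all 3 vehicle mice, and the column of VND3207 replicate 1 is paler or bluer than the other VND3207 columns in most rows.

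Several genes had more than 1 tested probe, and the probes did not always agree. Of the 48 tested probes none was called higher and 1 was called lower, beside 0.925% higher and 14.6% lower over all tested probes. It was a dim probe of Tpx2, a protein that activates Aurka and starts microtubules near chromosomes. The probe read -3.31, -3.03 and -2.70 in the VND3207 mice and -2.17, -1.82 and -2.20 in the vehicle mice, a difference of -0.95 (SE 0.19, limma adjusted p = 0.0224). All VND3207 values were below all vehicle values, as in 24.9% of all tested probes, while 9.41% were higher without overlap. The brightest Tpx2 probe read 0.81, 0.93 and 0.89 with VND3207 and 0.89, 0.91 and 0.76 with vehicle, overlapped, and differed by 0.03 (SE 0.10). The call on the dim probe was lost under quantile normalization (adjusted p = 0.0630), with the other background correction (0.0572) and in the deposited value table (0.0644). It was also lost when VND3207 replicate 1 (0.0594), VND3207 replicate 2 (0.0745), vehicle replicate 1 (0.0519), vehicle replicate 2 (0.0794) or vehicle replicate 3 (0.0543) was left out.

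The Tpx2 probes lie apart on the plus strand of chromosome 2, at chr2:152719476-152719535 for the brightest and chr2:152720285-152720344 for the one called lower, in the mm9 build that the files give. Their first 30 of 60 bases are shown because the same gene gave different results with them, and their positions do not overlap. Of their bases, 45% and 35% are G or C.
Tpx2, brightest probe: cgccatgtttggaaacacacctgataacta
Tpx2, probe called lower: gcccagtgcaaaggcatgtatttcaactta
Whether each lies in coding sequence or in an untranslated region was not analysed here.

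Cdk1 and Mad2l1 were split in the same way. A dim second Cdk1 probe read -4.29, -4.37 and -4.06 with VND3207 and -3.92, -2.61 and -2.66 with vehicle, all VND3207 values being lower, and differed by -1.17 (SE 0.36, limma adjusted p = 0.0898). It passed without vehicle replicate 1 (-1.60, adjusted p = 0.0081) and with array weights (-1.29, 0.0477), and not with any other array left out (0.130 to 0.243), nor under the trend correction (-0.69, 0.195), quantile normalization (-0.84, 0.216) or the other background correction (-0.45, 0.223). The dim Mad2l1 probes differed by -0.38 (limma adjusted p = 0.0542) and -0.42 (0.195), against 0.21 on the brightest, and under the trend correction by -0.23 and -0.10, against 0.06. Quantile normalization gave -0.15 and -0.25, against 0.19. Tpx2, Cdk1 and Mad2l1 were the genes, 3 of 10 with several tested probes, whose probes lay more than 0.5 apart with opposite signs. The split of Tpx2 held under the trend correction and quantile normalization, at 0.96 and 0.74 apart. The Mad2l1 probes came to 0.28 and 0.44 apart there, and both Cdk1 probes lay below 0 under the trend correction. In the other 7 all probes of a gene lay within 0.5 of each other, and for Ube2c, Pttg1, Birc5, Kif2c and Mki67 within 0.2, though the trend correction moved those of Pttg1 to 0.49, Birc5 to 0.21 and Mki67 to 0.22 apart.

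The third Cdk1 probe, untested, overlaps the brightest one on the minus strand of chromosome 10 (mm9), at chr10:68801053-68801112 and chr10:68801072-68801131. The first 30 bases of each are shown, with the shared bases in capitals, because the probes have 41 of 60 bases in common and yet only the brightest was well above background on all 6 arrays.
Cdk1, brightest probe: ttcttaatttcctacgtatAACTTAATTAA
Cdk1, overlapping probe: AACTTAATTAACATGTAAATATTATTCCAT
The overlapping probe was well above background on none of the VND3207 arrays and on 2 of 3 vehicle arrays. It read -5.16, -5.28 and -6.10 with VND3207 and -2.41, -4.68 and -5.18 with vehicle. Vehicle replicate 1 stood high, and replicate 3 overlapped the VND3207 mice. In each probe 18.3% of the bases are G or C.

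**Figure D4:**
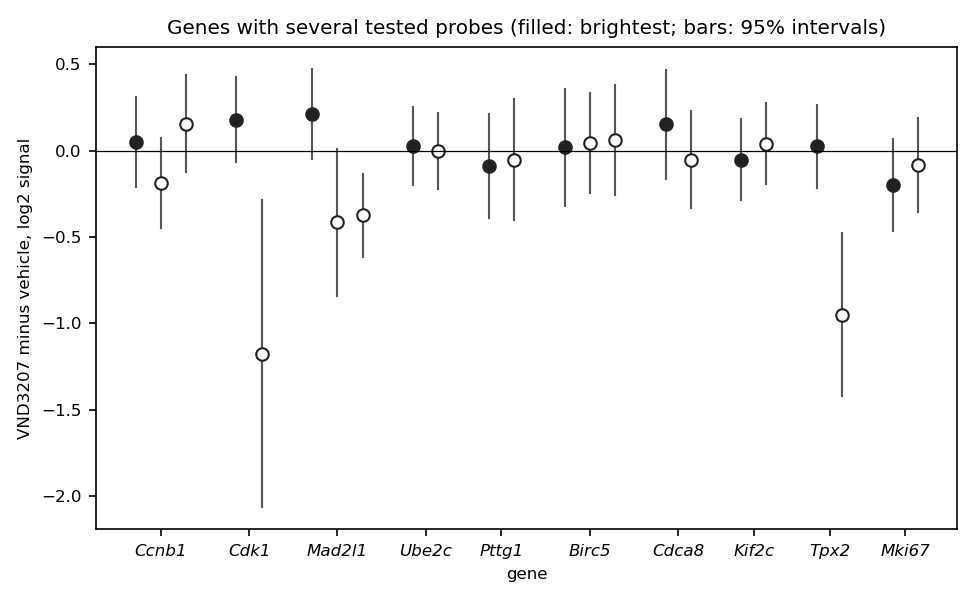
Differences in log2 signal, VND3207 minus vehicle, for every tested probe of the 10 mitosis genes with several probes. Filled circles are the brightest probe of a gene, open circles its further probes, and bars 95% intervals with 3 mice a group. With the scaling by the 75th percentile, the probes of Ube2c, Pttg1, Birc5, Kif2c and Mki67 sit together, while further probes of Cdk1, Mad2l1 and Tpx2 sit well below the brightest.

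The mice given VND3207 were not alike in these genes. VND3207 replicate 1 was the lowest of the 3 in 27 of 35 mitosis genes (77.1%), and its median deviation from the mean of the VND3207 mice was -0.08, with 0.03 in each of the other VND3207 mice. Over all probes tested with a value on every array, that mouse was the lowest in 39.3%, and in 41.8% of those above the 75th percentile. The exceptions were Cdc25b, Bub3, Ube2c, Espl1, Cenpa, Cenpf, Kif2c and Nusap1. Under 5 other ways of scaling or correcting the arrays the count ran from 24 to 27 of 35.

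The median over the mitosis genes of the signal minus the gene's mean was -0.03, 0.09 and 0.10 in the VND3207 mice and -0.04, -0.01 and -0.08 in the vehicle mice. VND3207 replicate 1 thus lay within the range of the vehicle mice, and VND3207 replicates 2 and 3 lay above it. Genes that share their cells are not independent of each other, so the counts describe these mice and carry no test. Among vehicle mice, replicate 2 was the highest in 19 of 35 genes (54.3%), beside 36.5% of all probes tested with a value on every array. After quantile normalization it was the highest in 13 (37.1%), beside 32.7%.

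**Figure D5:**
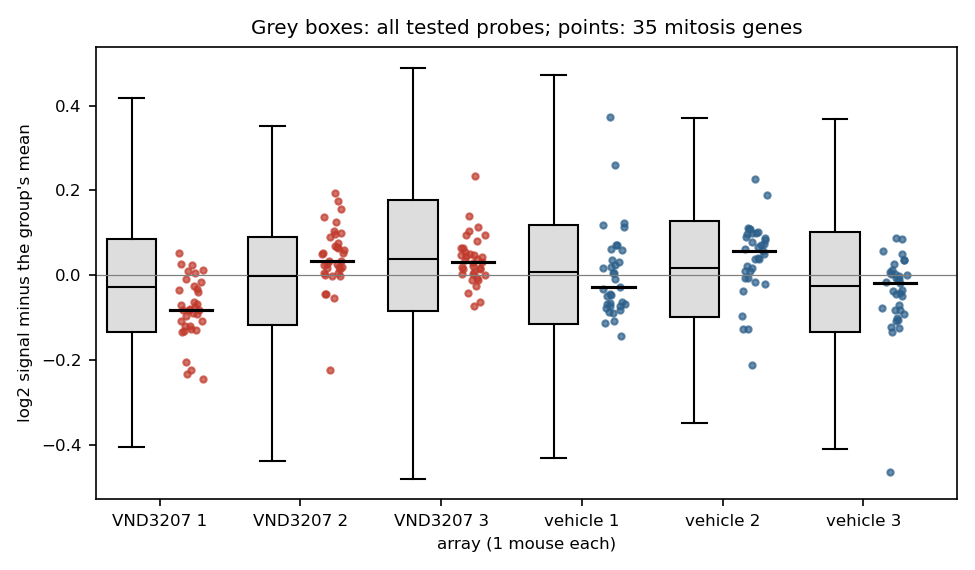
Log2 signal minus the mean of the mouse's own group (vertical) on each array (horizontal), for all tested probes (grey boxes: quartiles, with whiskers from the 5th to the 95th percentile) and for the 35 mitosis genes (points, with their median as a bar). The points of VND3207 replicate 1 lie mostly below 0, with a median of -0.08, while those of VND3207 replicates 2 and 3 lie mostly above it.

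Markers of other cells in the jejunum were read beside this pattern. Of 10 enterocyte markers, 6 were called lower with VND3207 (limma, adjusted p under 0.05), beside 14.1% of all gene names, and 9 lay below 0. Their median of -0.42 was -0.06 after quantile normalization. VND3207 replicate 1 was the lowest VND3207 mouse in 8 of 10, but in 4 after quantile normalization and in 5 under the trend correction. The median enterocyte signal relative to each gene's mean was -0.27, -0.26 and -0.13 in the VND3207 mice and 0.20, 0.41 and 0.15 in the vehicle mice. None of 7 crypt stem and progenitor markers passed the test, with a median of 0.07 and, relative to each gene's mean, 0.14, 0.16 and -0.09 in the VND3207 mice and -0.04, 0.01 and -0.21 in the vehicle mice. Beside 14.1% called lower over all gene names, Paneth cell markers were lower in 3 of 5, T cell markers in 2 of 6 and pancreatic acinar markers in 1 of 3. Above 0 lay 2 of 5 Paneth cell and 4 of 6 T cell markers, and the Paneth median of -0.41 was 0.01 after quantile normalization. None of 4 B cell markers and none of 6 smooth muscle markers passed. All 6 smooth muscle markers were lowest in VND3207 replicate 3, by a median of 1.54 below the mean of the VND3207 mice. The part of these markers in the values of the mitosis genes was not tested.

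A wider list of 106 further genes of mitosis, from the anaphase-promoting complex, kinetochore, spindle, condensin and cohesin and the transcription factors of mitotic genes, was read in the same way. Of these, 100 were measured, none was higher and none lower on the brightest probe (limma, adjusted p under 0.05), beside 0.922% higher and 14.1% lower over all gene names. An unadjusted p under 0.05 was found for 10, beside 26.6% of all gene names. The median was 0.06, with 65 genes above 0. Of the 100, 15 had all VND3207 values above all vehicle values, beside 9.87% of all gene names. All VND3207 values were below in 9, beside 24.4%. VND3207 replicate 1 was the lowest VND3207 mouse in 69 of the 100.

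Of the genes above 0, those with the smallest p were Oip5, Ska1, Ncapg2 and Pds5b. Oip5, needed to load Cenpa at centromeres, differed by 0.42 (SE 0.13, limma adjusted p = 0.0773). It passed after quantile normalization (0.55, limma adjusted p = 0.04) and under the trend correction (0.53, limma adjusted p = 0.0407). Ska1, of a complex that couples kinetochores to microtubules, differed by 0.26 (adjusted p = 0.122). The condensin gene Ncapg2 differed by 0.25 and the cohesin regulator gene Pds5b by 0.24, and all 4 had every VND3207 value above every vehicle value on the brightest probe. A dim further probe of Pds5b averaged -5.02 with VND3207 and -4.56 with vehicle and did not pass the test (limma adjusted p = 0.137). It was well above background on the 3 vehicle arrays only, so it was tested only because of that group.

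On the lower side stood Cdc26 and Anapc2, subunits of the anaphase-promoting complex, at -0.44 and -0.27, the centromere gene Cenpi at -0.37 and Plk4, the kinase of centriole duplication, at -0.33. Their limma adjusted p ran from 0.119 for Cdc26 to 0.151 for Plk4. The difference of Plk4 was -0.0055 under quantile normalization and -0.00071 under the trend correction. The 4 genes had every VND3207 value below every vehicle value, but they, like the 4 above 0, were picked by their p.

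Many mitotic genes are known to share control elements at their start. The DREAM complex binds the cell cycle genes homology region (CHR, searched as TTTGAA) and keeps these genes silent in resting cells, and the factor NF-Y binds CCAAT boxes (searched as CCAAT). Promoters from 250 bases before to 50 after the start were taken from RefSeq on GRCm38.p6 and searched on both strands. For 31 of the 36 genes 33 such windows were given. Of these, 23 (69.7%) held a CHR and 26 (78.8%) a CCAAT box, and 21 (63.6%) held both, with the motifs overlapping in 1 window, that of Cdca8. Of all 32851 promoter windows, 17.9% held a CHR, 37.4% a CCAAT box and 6.95% both. The 99 windows of the further mitosis genes described above held a CHR in 45.5%, a CCAAT box in 60.6% and both in 33.3%.

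Promoters of the gene nearest to the threshold (Bub1b), of the kinesin with well separated groups (Kif11), of a mitotic kinase (Plk1) and of a cyclin (Ccnb2) are shown in the direction of transcription with both motifs in capitals, a motif on the opposite strand reading TTCAAA or ATTGG.
Bub1b, chr2:118597961-118598260, plus strand: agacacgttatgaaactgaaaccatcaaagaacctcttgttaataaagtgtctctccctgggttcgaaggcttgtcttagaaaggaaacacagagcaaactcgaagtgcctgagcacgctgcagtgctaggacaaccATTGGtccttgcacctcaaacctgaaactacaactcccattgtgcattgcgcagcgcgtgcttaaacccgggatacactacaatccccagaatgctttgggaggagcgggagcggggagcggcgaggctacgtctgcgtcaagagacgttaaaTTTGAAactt
Kif11, chr19:37376132-37376431, plus strand: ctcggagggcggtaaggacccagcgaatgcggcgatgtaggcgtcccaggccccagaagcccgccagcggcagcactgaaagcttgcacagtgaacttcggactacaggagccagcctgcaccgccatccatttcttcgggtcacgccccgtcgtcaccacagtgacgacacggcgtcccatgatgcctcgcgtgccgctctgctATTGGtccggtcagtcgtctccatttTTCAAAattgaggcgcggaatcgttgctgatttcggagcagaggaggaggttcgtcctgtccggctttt
Plk1, chr7:122159185-122159484, plus strand: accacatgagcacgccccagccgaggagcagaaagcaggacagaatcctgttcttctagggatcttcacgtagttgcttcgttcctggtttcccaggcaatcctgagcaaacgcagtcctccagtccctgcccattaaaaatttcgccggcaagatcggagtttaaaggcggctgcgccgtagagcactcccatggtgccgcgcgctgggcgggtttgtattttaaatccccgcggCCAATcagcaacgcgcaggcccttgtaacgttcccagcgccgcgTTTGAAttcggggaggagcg
Ccnb2, chr9:70421505-70421804, minus strand: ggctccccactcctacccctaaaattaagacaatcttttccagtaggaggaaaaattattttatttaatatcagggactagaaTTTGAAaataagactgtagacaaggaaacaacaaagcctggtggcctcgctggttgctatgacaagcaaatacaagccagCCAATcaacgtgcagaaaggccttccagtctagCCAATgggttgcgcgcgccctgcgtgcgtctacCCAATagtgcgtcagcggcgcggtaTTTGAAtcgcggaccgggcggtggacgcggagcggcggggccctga
In the Ccnb2 promoter the 3 CCAAT boxes start 33 bases apart from each other, and the last starts 25 bases before a CHR. Bub1b, Kif11 and Plk1 hold 1 of each motif.

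Genes with and without the CHR are set side by side here. The 21 tested genes with a CHR in the window had a median difference of 0.15, with 16 above 0, and the 10 without one had a median of 0.04, with 7 above 0. VND3207 replicate 1 was the lowest VND3207 mouse in 15 of the 21 and in 8 of the 10. A motif match describes letters in a window and not binding, and these splits carry no test.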

How the data were processed

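Gene expression was measured on 6 Agilent arrays with 1 colour and probes of 60 bases, 3 from mice given VND3207 and 3 from mice given vehicle. Per the file headers, the deposited intensity values used here are the processed signal of Agilent Feature Extraction 10.7.1.1, background-subtracted and not scaled between arrays. The values in the deposited series table are log2 and were used only as an alternative. Its columns share a median of 6.05, and how it was normalized is not given in the sources used here. Every column of values used belongs to a labelled sample, with 0 unmatched.

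Control and outlier spots were left out, spots of a probe were averaged, and from each log2 signal the array's 75th percentile, taken over 59305 spots, was subtracted. Of 55681 probes, 36098 were well above background on at least 3 of 6 arrays and were fitted with limma 3.58.1 (lmFit, eBayes) under R 4.3.3. Adjustment by Benjamini-Hochberg covered all of them, at a threshold of 0.05. No array held a saturated non-control spot. The brightest probe stood for a gene. The number of arrays limits the precision, and p-values measure the spread between these mice.

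Named with every value were members past the threshold and those with the largest difference or smallest p in each role. So were those whose probes disagree, and Ttk and Bub1b. Of the further mitosis genes, those past the threshold and the 4 with the smallest p in each direction were named, with their differences only. Members, lists and this rule were chosen with earlier results of these data known. Bub1, Cdk1 overlap and promoter examples were chosen after their values were seen.

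Alternatives were quantile normalization, normexp with an offset of 50, the deposited table, another percentile base, other filters and probe choices, variance models, weights for arrays, a block for the replicate number, leaving out arrays in turn and a looser threshold, together with a correction of smooth trends with mgcv 1.9.3 that may take away some real difference too. The pattern of VND3207 replicate 1 under other scalings was added after the data were seen. Same-numbered mice deviated together with correlations from -0.11 to 0.13, and differently numbered ones from -0.26 to 0.30. No pairing by number was seen, though so few mice cannot exclude one.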

Additional observations from a re-analysis of the deposited data

How the results depend on the processing

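The median of the mitosis genes stayed above 0 in every alternative run, from 0.04 to 0.15 with an array left out. Probes of the mitosis genes called higher, 0 as reported, numbered 1 (Bub1b) when the variance followed the signal, with or without robust estimation, and 1 at an adjusted p under 0.1. Probes called lower, 1 as reported, numbered 0 with quantile normalization, normexp, the deposited table, the brightest probe per gene, the mean of probes and the replicate number as a block (replicate block), 2 with the percentile over spots well above background on all arrays, 3 with array weights and 3 at the looser threshold. They ranged from 0 to 1 with an array left out, 0 without VND3207 replicate 1 or 2 and without vehicle replicate 2 or 3. Further mitosis genes called higher, 0 as reported, numbered 1 with quantile normalization, the deposited table, array weights and the looser threshold and 2 with the trend correction, and those called lower, also 0, numbered 1 when the variance followed the signal, with or without robust estimation. The replicate block changed no other call among these counts; the dim Tpx2 probe had an adjusted p of 0.0630 there.

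Cdk1 changed sign under the trend correction (-0.13) and with the mean of its probes (-0.50), and Mad2l1 (-0.19) and Tpx2 (-0.46) did so with the mean of their probes, which weighs in the dim ones. The trend correction also changed the sign of Ccnb1 (-0.14), Cdca3 (-0.09), Ccna2 (0.03), Espl1 (0.14), Cenpa (0.0042) and Kif2c (0.03). Espl1 (0.03) and Kif2c (0.12) lay above 0 under quantile normalization too. The brightest Tpx2 probe, close to 0, was at -0.0056 with the other percentile base and ran from -0.021 to 0.060 with an array left out, below 0 without VND3207 replicate 2 (-0.0014) and without vehicle replicate 3. Pttg1 ran from -0.15 to 0.0048, above 0 only without vehicle replicate 2. The cause of the other changes was not tested. A block for slide or scan was not run, because each holds 1 group. For dim probes the low signal over background and the 3 arrays a group limit what could be seen.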

Other observations

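Genes acting before mitosis were read as well, where 0.922% of all gene names were called higher. Of 24 genes of DNA replication, 1 was higher with VND3207, Orc1, a subunit of the origin recognition complex, which read -3.31, -3.62 and -3.48 with VND3207 and -4.08, -4.12 and -4.40 with vehicle (difference 0.73, SE 0.14, limma adjusted p = 0.0177). All 3 VND3207 values were above the vehicle values, as in 11 of the 24 genes, where 9.87% of all gene names did so. The list had a median difference of 0.15, with 17 genes above 0 and 7 at an unadjusted p under 0.05, beside 26.6% of all gene names. Of 8 genes linked to arrest before mitosis, 1 was higher, the antiproliferative gene Btg2, which read 2.76, 2.87 and 2.91 with VND3207 and 2.48, 2.41 and 2.42 with vehicle (difference 0.41, SE 0.10, limma adjusted p = 0.0356). Cdkn1a, which encodes the Cdk inhibitor p21, differed by 0.07. Over the 8 genes the median was 0.04, with 5 above 0 and 3 below, and the lowest, at -0.46, did not pass.

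Lin9, a subunit of the DREAM complex, showed the same split between probes as Tpx2. Its dim probe read -3.97, -3.53 and -3.44 with VND3207 and -2.62, -2.44 and -2.31 with vehicle. It was called lower (difference -1.19, SE 0.17, limma adjusted p = 0.0070), as were 20.3% of all tested probes below the 75th percentile. The brightest Lin9 probe differed by 0.20 (limma adjusted p = 0.401) with overlapping groups. Calls on the further probes of the wider list are not counted here.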
